A study of Arabidopsis thaliana with 12 samples.

Results

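The seedlings examined here carry, by their label h3.3ko;HTR5, a knockout of histone H3.3 together with HTR5, an H3.3 gene. They are called the HTR5 rescue below, and were set against wild type (Col) to describe what an H3.3 supply from HTR5 alone leaves changed. Each group had 3 libraries, so the comparison used 6 of the 12 libraries of the study. Genes with at least 1 TPM (a transcript level scaled to gene length and to a fixed library total) in at least 3 of the 6 libraries were tested, which gave 19731 of 27655 genes. The other 6 libraries, 3 labelled h3.3ko;HTR5 K4A and 3 labelled sdg2, serve for values side by side and for an overlap of called genes. K4A denotes a lysine-to-alanine change at position 4, here in the HTR5 supplied to the same knockout, and SDG2 is a methyltransferase gene for that lysine. All material was seedlings of Arabidopsis thaliana aged 3 weeks, grown at 22 °C under a day of 16 h and a night of 8 h. The labels give neither the knockout alleles, nor how HTR5 was supplied, nor whether replicates were separate plants, so p-values measure the spread between these samples, which may be technical.

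H3.3 is the replacement form of histone H3. It is placed into chromatin outside DNA replication and is abundant over transcribed genes, while H3.1 is placed at the replication fork. In Arabidopsis HTR4, HTR5 and HTR8 code for H3.3, so that one gene can in principle supply the protein in place of the others. Linker histones of the H1 class sit where DNA enters and leaves the nucleosome, and H2A, H2B and H4 complete its core.

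The H3.3 genes are close copies, so their first coding bases are shown to let a reader see how far reads can tell them apart. Capitals mark the 19 of these 90 positions at which the 3 genes do not all have the same base, with sequence from RefSeq TAIR10.1. HTR4 lies at chr4:18555532-18557106, HTR5 at chr4:18557149-18558945 and HTR8 at chr5:3472405-3473570, each on the minus strand.
HTR4: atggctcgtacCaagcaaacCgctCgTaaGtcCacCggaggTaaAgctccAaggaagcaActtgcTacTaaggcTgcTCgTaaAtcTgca
HTR5: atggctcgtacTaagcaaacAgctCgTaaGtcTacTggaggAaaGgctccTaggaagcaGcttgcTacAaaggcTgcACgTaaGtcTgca
HTR8: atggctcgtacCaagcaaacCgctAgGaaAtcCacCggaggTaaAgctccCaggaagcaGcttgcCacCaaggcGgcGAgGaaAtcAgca
Over all 411 coding bases HTR4 and HTR5 were identical at 88.8%, HTR5 and HTR8 at 79.8%, and HTR4 and HTR8 at 78.6%. The longest identical run was 47 bases, between HTR4 and HTR5. How the authors counted reads shared between copies is not given in the sources used here.

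All 3 H3.3 genes were lower in the HTR5 rescue, HTR8 nearly to nothing and HTR4 and HTR5 in part. HTR8 (AT5G10980) stood at 3.99, 10.1 and 5.35 TPM in the HTR5 rescue, against 249, 234 and 248 TPM in Col. The HTR8 level was thus 2.66% of that in Col, with a log2 fold change of -5.11 ± 0.23 (SE). HTR4 (AT4G40030), by contrast, kept 161, 179 and 169 TPM in the HTR5 rescue, against 320, 321 and 308 TPM in Col. That is 53.6% of the Col level, a log2 fold change of -0.90 ± 0.07, so near-complete loss of transcript was seen for HTR8 only. Whether the remaining HTR4 reads come from a transcript that codes for a whole protein was not tested. HTR5 (AT4G40040), the gene supplied, stood at 288, 245 and 284 TPM in the HTR5 rescue, against 390, 390 and 394 TPM in Col, with a log2 fold change of -0.52 ± 0.07. Reads of a resident and of an added HTR5 copy cannot be told apart in this table. The limma test, with Benjamini-Hochberg adjustment over all genes tested, gave adjusted p-values of 5.0e-07 for HTR8, 2.4e-05 for HTR4 and 0.0022 for HTR5. Each of these calls (adjusted p under 0.05) was made in all 18 alternative analyses, and called genes made up 3.93% of all genes tested.

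Summed over HTR4, HTR5 and HTR8, H3.3 transcripts reached 453, 435 and 459 TPM in the HTR5 rescue, against 959, 945 and 950 TPM in Col. The groups stood far apart, at 449 ± 12.3 and 951 ± 7.16 TPM (SD, n = 3 each), so the HTR5 rescue had 47.2% of the Col level. The two-sided exact permutation test gave p = 0.1, the smallest value that 3 against 3 libraries allow. HTR5 made up 60.7% of the sum in the HTR5 rescue, against 41.2% in Col. TPM here are scaled to the whole gene span, introns included, which sets the weight of each gene in this sum.

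**Figure D1:**
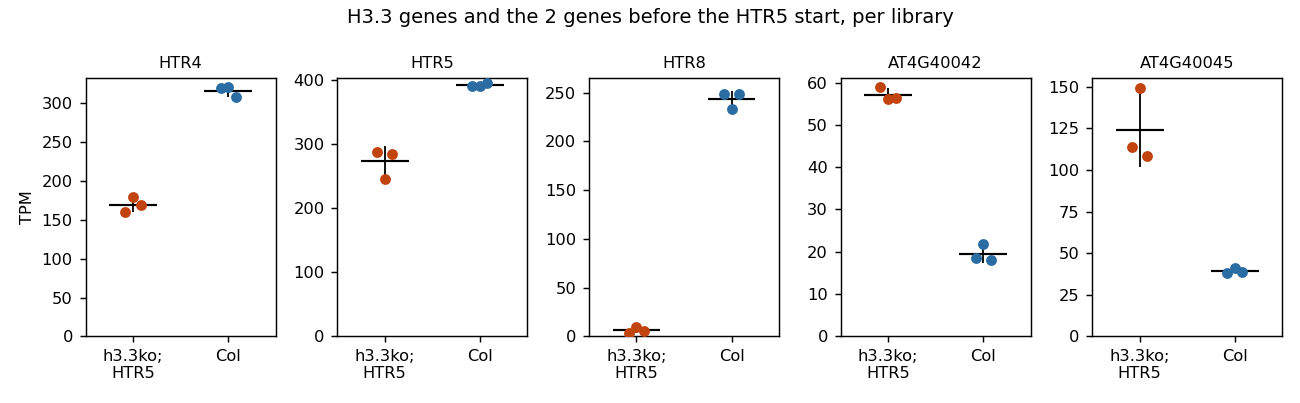
TPM of the H3.3 genes and of the 2 genes next to the HTR5 start, in the HTR5 rescue (left in each panel) and in Col. Points are libraries, and black lines are the mean and SD (n = 3). HTR8 is near 0 in the HTR5 rescue, HTR4 and HTR5 are lower than in Col, and AT4G40042 and AT4G40045 are higher.

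The genes on the upstream side of HTR5 moved the other way. AT4G40042, which codes for a microsomal signal peptidase subunit, starts 151 bases beyond the HTR5 start on the opposite strand (chr4:18559097-18559570). It stood at 58.9, 56.2 and 56.3 TPM in the HTR5 rescue, against 18.5, 21.9 and 18.0 TPM in Col, a log2 fold change of 1.51 ± 0.10 with a limma adjusted p of 8.2e-06. AT4G40045 (chr4:18559784-18560713), an uncharacterized gene, stood at 114, 149 and 109 TPM in the HTR5 rescue, against 38.2, 41.1 and 38.9 TPM in Col, a log2 fold change of 1.61 ± 0.11. Both genes were about 3 times as high as in Col, and the change ended there. The next gene, AT4G40050, stood at 39.0 ± 0.86 TPM in the HTR5 rescue and 38.4 ± 2.3 TPM in Col, with a log2 fold change of 0.03 ± 0.08. On the HTR4 side AT4G40020, 176 bases away, had a log2 fold change of 0.39 (adjusted p = 0.47, limma). None of the 3 nearest tested genes on either side of HTR8 was called, and their log2 fold changes ran from -0.01 to 0.34. In K4A seedlings AT4G40042 was also high, at 77.3 ± 5.96 TPM, while AT4G40045 was at 21.3 ± 1.73 TPM. Whether counting used the strand is not given in the sources used here, so reads of AT4G40042 and of transcripts on the other strand cannot be told apart.

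**Figure D2:**
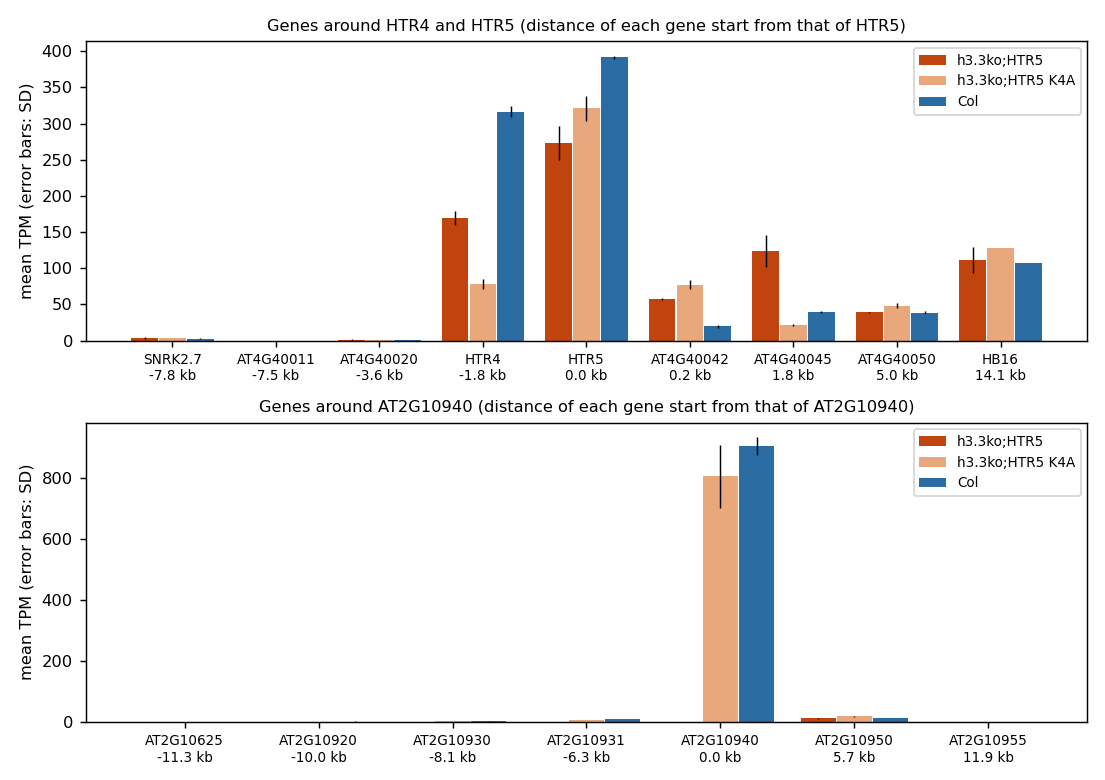
Mean TPM (bars, with SD, n = 3) of neighbouring genes around HTR4 and HTR5 (top) and around AT2G10940 (bottom), in the HTR5 rescue, K4A and Col. Distances are from the gene start named in each panel. AT4G40042 and AT4G40045, next to the HTR5 start, are higher in the HTR5 rescue than in Col, and AT2G10940 is near 0 in the HTR5 rescue alone.

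Genes for the other histones were higher in the HTR5 rescue as a group. Of 38 tested genes for H1, H2A, H2B, H3.1 and H4, 20 were called higher by limma and 0 lower, and limma-voom on recovered reads called 17 and 0. The background was 1.78% of tested genes called higher and 2.14% called lower. At an unadjusted p under 0.05 the counts were 29 higher and 0 lower, beside 2188 higher and 1206 lower of all 19731 genes tested. The fold change was positive for 36 of the 38, beside 13281 of all 19731 genes tested. The median log2 was 0.42, beside 0.08 for all genes tested. Their summed level was 6908, 6449 and 6713 TPM in the HTR5 rescue, against 4426, 4368 and 4539 TPM in Col. By class the mean sum was 1584 TPM in the HTR5 rescue and 816 TPM in Col for H4, and 1367 and 645 TPM for H1. For H2B it was 1825 and 1360 TPM, and for H2A 1240 and 1098 TPM. The H3.1 genes, the only H3 genes among the 38, had 673 ± 114 and 525 ± 22.3 TPM (SD), and their groups overlapped. These histone classes were grouped after their values had been seen.

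The linker histone H1.3 (AT2G18050), in Arabidopsis a form induced by drought and low light, showed the largest rise among histone genes. It stood at 499, 666 and 518 TPM in the HTR5 rescue, against 110, 119 and 123 TPM in Col, which is 4.79 times the Col level. The log2 fold change was 2.24 ± 0.10, with a limma adjusted p of 6.2e-07. H1.2 (AT2G30620), a main form of H1, rose as well, to 345, 358 and 335 TPM in the HTR5 rescue, against 199, 210 and 215 TPM in Col. H1.1 (AT1G06760), the other main form, had 521, 355 and 504 TPM in the HTR5 rescue, against 320, 315 and 324 TPM in Col, and missed the threshold (adjusted p = 0.051, limma). With replicate 2 of the HTR5 rescue left out all 3 H1 genes were called. In K4A seedlings, which share the knockout by label, H1.3 was at 564 ± 63.8 TPM, and in sdg2 at 82.4 ± 10.4 TPM.

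All 8 H4 genes were called higher, at log2 fold changes from 0.41 to 1.66 (median 0.80). Together they gave 1596, 1599 and 1558 TPM in the HTR5 rescue, against 802, 799 and 847 TPM in Col. AT3G53730 stood out at 416, 367 and 394 TPM in the HTR5 rescue, against 122, 117 and 131 TPM in Col, a log2 fold change of 1.66 ± 0.07. The weakest was AT1G07660, with 60.7, 54.7 and 56.7 TPM in the HTR5 rescue, against 45.3, 41.8 and 41.3 TPM in Col. AT1G07660 was called in 9 of the 18 alternatives and the other 7 H4 genes in all of them. The H4 genes code for the same protein, and both single values and the sum may depend on how reads shared between copies were counted.

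H2B followed, where limma called 7 of 9 tested genes higher and the median was 0.44 (log2). HTB9 (AT3G45980) stood at 422, 422 and 425 TPM in the HTR5 rescue, against 278, 272 and 276 TPM in Col. HTB2 and HTB4, with log2 fold changes of 0.26 and 0.05, were not called. Of the 5 H3.1 genes only HTR3 (AT3G27360) was called, with 9.37, 15.0 and 8.43 TPM in the HTR5 rescue, against 3.20, 3.96 and 3.99 TPM in Col. Of 13 H2A genes only HTA6 and HTA7, which code for the heterochromatin form H2A.W, were called. HTA7 (AT5G27670) stood at 158, 142 and 144 TPM in the HTR5 rescue, against 108, 96.7 and 103 TPM in Col. HTA6 (AT5G59870) stood at 186, 183 and 182 TPM in the HTR5 rescue, against 157, 149 and 148 TPM in Col, and was called in 10 of 18 alternatives.

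Replicate 2 of the HTR5 rescue weighs on these counts. In that library HTR1 (AT5G65360), an H3.1 gene, was at 199 TPM, beside 284 and 267 TPM in replicates 1 and 3, and 193, 205 and 212 TPM in Col. Without that library all 5 H3.1 genes, 6 of 13 H2A genes and 30 of the 38 histone genes were called higher, and none lower. Of all 19731 genes tested that fit called 701 higher and 898 lower. Of 14 genes for replication and mitosis limma called 0, limma-voom 1 higher, and limma without replicate 2 of the HTR5 rescue 2 higher. At an unadjusted p under 0.05 there were 10 higher and 0 lower, beside 2188 and 1206 of all 19731 genes tested. The median log2 fold change of the 14 genes was 0.31, beside 0.08 for all genes tested. All 14 were positive, beside 13281 of all 19731 genes tested. Of 10 genes for chaperones that carry H3, such as HIRA and CAF-1 subunits, limma and limma-voom called 0, with 2 higher and 0 lower at an unadjusted p under 0.05 and a median of 0.24.

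**Figure D3:**
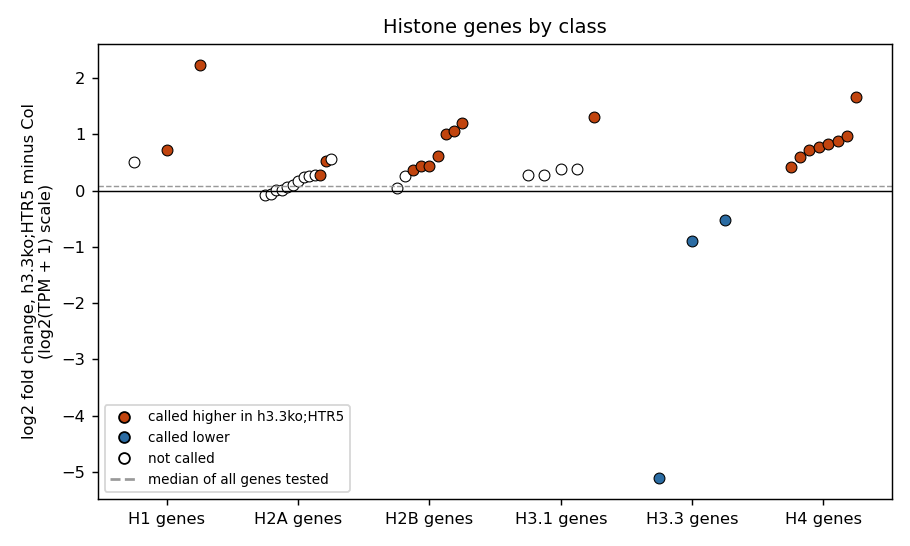
Log2 fold change, HTR5 rescue minus Col, on the log2(TPM + 1) scale, for each tested histone gene by class. Filled points were called (adjusted p under 0.05), and the dashed line is the median of all genes tested, 0.08. All 8 H4 genes and H1.3 lie above the line, and the H3.3 genes lie below 0.

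Promoters of the histone genes were searched for CGCGGATC, an octamer known from plant histone promoters, on both strands in the 250 bases before each gene start. It was present in 2 of 8 H4, 3 of 5 H3.1, 3 of 13 H2A, 1 of 3 H1 and 0 of 11 H2B promoters, and in 0.153% of the promoters of 19629 tested genes. The stretches of the 2 H4 promoters that hold it are shown with the octamer in capitals, from RefSeq TAIR10.1, at chr1:2368687-2368786 and chr5:24051383-24051473, both plus strand. The H4 gene with the weakest rise, AT1G07660, is one of them, and AT3G53730 with the strongest is not. No match says only that these letters are absent from the window searched.
AT1G07660: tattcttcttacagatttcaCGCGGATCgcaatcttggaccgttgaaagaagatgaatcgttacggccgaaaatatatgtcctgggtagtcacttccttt
AT5G59690: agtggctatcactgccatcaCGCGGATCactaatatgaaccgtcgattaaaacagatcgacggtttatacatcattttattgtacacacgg

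High mobility group proteins of the B class bend DNA and bind nucleosomes, and 3 adjacent genes on chromosome 1 were called higher, the longest run of adjacent called genes. HMGB2 (AT1G20693) stood at 309, 338 and 311 TPM in the HTR5 rescue, against 135, 132 and 143 TPM in Col, a log2 fold change of 1.22 ± 0.07. HMGB3 (AT1G20696) stood at 133, 179 and 140 TPM in the HTR5 rescue, against 94.9, 93.2 and 97.2 TPM in Col. The third, AT1G20690, annotated as a SWI-SNF-related protein, stood at 7.66, 13.9 and 9.41 TPM in the HTR5 rescue, against 5.17, 3.32 and 3.42 TPM in Col. HMGB1, HMGB4 and HMGB5, which lie elsewhere, were not called, with log2 fold changes of 0.16, 0.14 and 0.36. These genes were looked at after their values had been seen.

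Across the whole table the HTR5 rescue had 775 called genes, of which 352 were higher and 423 lower. At 2-fold or more there were 73 higher (0.37% of genes tested) and 200 lower (1.01%), so the large changes were mostly falls. Of the 775 calls 312 were made in all 18 alternatives, as were 217 of the 273 at 2-fold or more, and 0 changed direction in any. Without replicate 1, 2 or 3 of Col 395, 389 and 381 genes were called, and without replicate 2 of the HTR5 rescue 1599. That last fit called 701 higher and 898 lower, the background for list counts given without that library. With all 6 libraries 2188 genes were higher and 1206 lower at an unadjusted p under 0.05, the background for list counts at that cut. Under the scaling alternatives called genes were higher in 39.0% of cases with median-of-ratios scaling and 41.2% with quantile normalization, beside 45.4% as reported. Recovered reads per library ran from 13718753 to 14536028 in these 6 libraries. Replicate 2 of the HTR5 rescue stood apart: its reads differed from those of replicates 1 and 3 with a chi-square per degree of freedom of 19.3 and 15.9, against 1.80 to 2.84 between Col libraries.

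**Figure D4:**
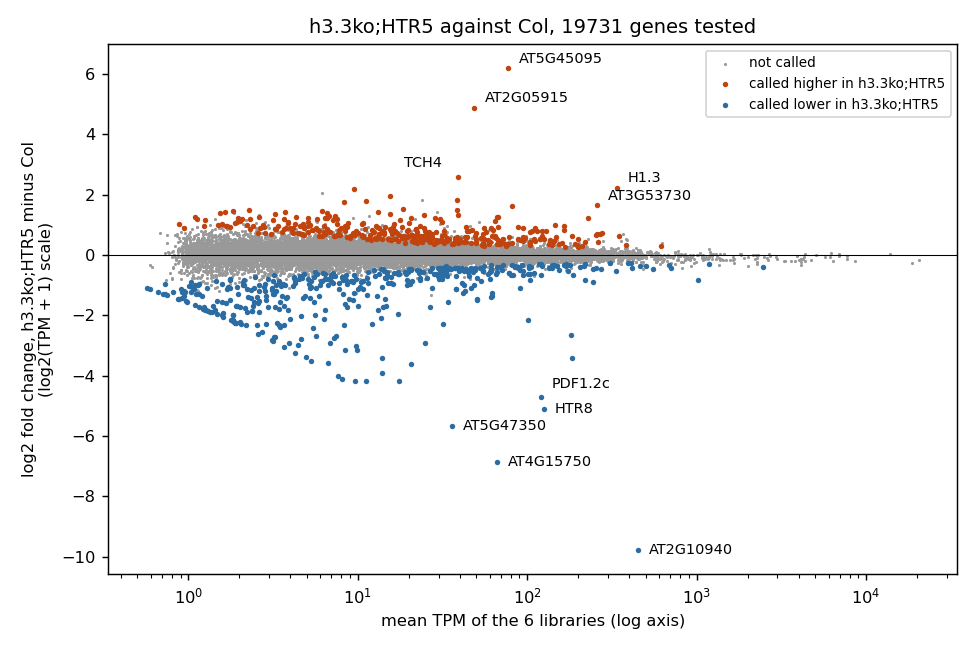
Log2 fold change, HTR5 rescue minus Col, against the mean TPM of the 6 libraries (log axis) for the genes tested, with called genes in colour. The called genes with the largest changes are falls, led by AT2G10940, AT4G15750 and AT5G47350, and AT5G45095 and AT2G05915 lead the rises.

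A further group that rose was that of touch and early stress genes, which respond within minutes to mechanical or other stimuli. This list was written with earlier results of these data known, so its count of calls is not independent of them. Of 21 tested genes of this list, limma called 17 higher and 0 lower and limma-voom 16 and 0, with 19 higher and 0 lower at an unadjusted p under 0.05. All 21 fold changes were positive, beside 13281 of all 19731 genes tested, with a median log2 of 0.91. For 19 genes all HTR5 rescue libraries lay above all Col libraries, as for 16.9% of genes tested. TCH4 (AT5G57560), a xyloglucan-modifying cell wall enzyme, stood at 59.3, 79.5 and 63.9 TPM in the HTR5 rescue, against 9.63, 10.1 and 11.5 TPM in Col. Its log2 fold change of 2.58 ± 0.12 (adjusted p = 8.0e-07, limma) was the third largest rise among genes named by rule. DIC2 (AT4G24570), a mitochondrial dicarboxylate carrier, stood at 67.4, 51.2 and 62.1 TPM in the HTR5 rescue, against 19.3, 14.5 and 15.5 TPM in Col. WRKY40 (AT1G80840), a stress-induced transcription factor, stood at 13.2, 14.1 and 12.2 TPM in the HTR5 rescue, against 4.69, 3.57 and 1.79 TPM in Col.

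The other called members of the touch list had log2 fold changes from 0.71 to 1.47. They include the ethylene response factors ERF6 at 1.47 and ERF104 at 1.23, the calmodulin-like CML38 at 1.43 and CML37 at 1.13, and the zinc finger protein SZF1 at 1.34. ZAT10 (AT1G27730), a zinc finger repressor, stood at 45.8, 39.1 and 44.6 TPM in the HTR5 rescue, against 19.4, 21.5 and 17.6 TPM in Col. The 4 not called were ZAT12 at 0.57, XTH23 at 0.47, MYB15 at 0.74 and TCH1 at 0.01. TCH1, a calmodulin, stood at 89.4, 101 and 87.5 TPM in the HTR5 rescue, against 90.9, 92.0 and 91.6 TPM in Col, so the groups overlapped. Among 39 tested genes annotated as WRKY DNA-binding proteins, counted after values had been seen, WRKY33, WRKY40, WRKY46 and WRKY70 were called higher. WRKY53, annotated otherwise, was a called member of the touch list and kept its call in 12 of 18 alternatives. The summed level of the touch list was 612, 658 and 621 TPM in the HTR5 rescue, against 323, 310 and 310 TPM in Col, while the K4A libraries had 3126, 3151 and 3042 TPM and the sdg2 libraries 1972, 2037 and 2023 TPM.

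Among the cold genes CBF1 and CBF2, transcription factors induced early in the cold, were the 2 of 10 tested that were called. CBF2 (AT4G25470) stood at 8.52, 10.4 and 9.81 TPM in the HTR5 rescue, against 4.93, 3.35 and 2.57 TPM in Col, with a log2 fold change of 1.23 ± 0.19. CBF1 (AT4G25490) stood at 1.97, 1.80 and 2.56 TPM in the HTR5 rescue, against 0.515, 0.258 and 0.390 TPM in Col. The other 8, CBF3 and genes that act later in the cold, were not called, and the list had a median of 0.11, with 3 called higher without replicate 2 of the HTR5 rescue. Of 8 tested heat genes, 3 were called lower and 0 higher, with a median of -0.15, and limma-voom called 2 lower. HSP70-4 (AT3G12580), a cytosolic chaperone, was at 32.3, 33.4 and 30.2 TPM in the HTR5 rescue, against 65.7, 64.1 and 65.1 TPM in Col. HSP17.4 and the coactivator MBF1C had log2 fold changes of -0.87 and -0.69, and HSP17.4 was called in 11 of 17 alternatives.

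The strongest rise of all was that of AT5G45095 (chr5:18207363-18209052), an uncharacterized gene. It stood at 138, 174 and 145 TPM in the HTR5 rescue, against 0.742, 1.21 and 1.31 TPM in Col, with a log2 fold change of 6.20 ± 0.14 and a limma adjusted p of 1.9e-09. The level was 140 times that in Col, while K4A had 8.09 ± 0.502 TPM and sdg2 2.83 ± 0.637 TPM. None of the 3 tested genes on either side of AT5G45095 was called. AT2G05915 (chr2:2263816-2264265), also uncharacterized, stood at 92.7, 87.7 and 105 TPM in the HTR5 rescue, against 3.83, 2.45 and 1.05 TPM in Col, a log2 fold change of 4.88 ± 0.25. It was at 60.0 ± 4.89 TPM in K4A and 9.62 ± 2.205 TPM in sdg2, and its tested neighbours were not called either. The remaining rises named by rule were the SAUR-like AT3G09870 at 2.18, the glycine-rich AT1G07135 at 1.97, a chloroplast gene listed as ATCG01060 at 1.79 and AT4G29780, annotated as a nuclease, at 1.54 on the log2 scale. No name for ATCG01060 was found in the sources used here. ATCG01060 was at 16.5, 20.6 and 15.8 TPM in the HTR5 rescue, against 7.64, 3.20 and 3.21 TPM in Col.

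AT2G10940 (chr2:4310321-4312162), which codes for a protein of the lipid-transfer and 2S albumin superfamily, showed the largest fall. It was among the highly expressed genes of Col, at 869, 917 and 925 TPM, and in the HTR5 rescue was listed at 0, 0.0915 and 0 TPM. That is 1 read in the 3 HTR5 rescue libraries together, against 31728 reads in Col. The read ratio of Col to the HTR5 rescue was 31631, with an exact binomial 95% interval from 5677 to 1249400 that covers counting error only. K4A seedlings had 804 ± 103 TPM and sdg2 seedlings 534 ± 38.8 TPM, so of the 4 groups the HTR5 rescue alone lacked it. Toward lower coordinates the 3 neighbours AT2G10931, AT2G10930 and AT2G10920 had 0 reads in the HTR5 rescue, against 184, 15 and 6 reads in Col. AT2G10931 was at 8.07, 9.08 and 8.57 TPM in Col, and was called lower. On the other side AT2G10950, which starts at 4314243, was at 9.81, 13.3 and 12.6 TPM in the HTR5 rescue, against 12.9, 12.3 and 12.2 TPM in Col, with a log2 fold change of -0.07.

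Several defence genes of the ethylene and jasmonate branch were called lower, and they are named here because of their values, so their number is no measure of the branch. PDF1.2 (AT5G44420), the standard marker of this branch, codes for an antifungal defensin. It stood at 25.1, 27.6 and 40.4 TPM in the HTR5 rescue, against 337, 325 and 343 TPM in Col, a log2 fold change of -3.42 ± 0.14. PDF1.2c (AT5G44430) stood at 5.02, 11.3 and 8.30 TPM in the HTR5 rescue, against 233, 202 and 262 TPM in Col, and PDF1.2b and PDF1.3 had log2 fold changes of -3.89 and -4.16. The PDF1 genes are near-identical copies, so each single value depends on how shared reads were assigned. PR4 (AT3G04720), a chitin-binding protein, stood at 42.7, 21.5 and 50.5 TPM in the HTR5 rescue, against 176, 153 and 167 TPM in Col. The basic chitinase gene HCHIB, the thionin gene THI2.1 and ORA59, a transcription factor that activates PDF1.2, had log2 fold changes of -1.72, -0.84 and -1.01. ORA59 was called in 9 of 17 alternatives, and ERF1 at -0.58 was not called.

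In the jasmonate and oxylipin list 2 of 14 tested genes were called by limma, PDF1.2 and DOX1, both lower, and the median was 0.05. At an unadjusted p under 0.05 there were 5 higher and 5 lower, and limma-voom called 1 higher and 5 lower. Without replicate 2 of the HTR5 rescue 5 were called higher and 6 lower, with a median of -0.13, so calls in that fit went in both directions. DOX1 (AT3G01420), a dioxygenase that forms oxylipins, was at 1.35, 1.02 and 1.04 TPM in the HTR5 rescue, against 16.3, 11.2 and 12.7 TPM in Col. Of 12 tested genes of salicylic acid defence limma called WRKY70 alone, higher, with a log2 fold change of 0.52 ± 0.10, and limma-voom called 2 higher. WRKY70 was called in 14 of 18 alternatives, the list had a median of 0.12, and 2 of its genes were called higher without replicate 2 of the HTR5 rescue. The 5 tested senescence genes included 2 that were called lower, and without that library 1 more was called higher. SAG12 (AT5G45890), a cysteine protease of ageing leaves, was at 9.66, 11.04 and 9.49 TPM in the HTR5 rescue, against 48.0, 58.6 and 53.3 TPM in Col. SAG13 had a log2 fold change of -0.92.

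Some of the called falls were of genes listed at or near 0 in the HTR5 rescue. Genes near 0 there could enter the test only through Col, so their number is no result in itself. In 66 of the 423 called-lower genes no HTR5 rescue library held more than 3 reads. Of these 66, 54 were at that floor in K4A as well, 51 in sdg2 and 50 in both, so for those 50 genes the Col level stood apart from that of the other 3 groups. AT4G15750 (chr4:8967519-8968615), of the pectin methylesterase inhibitor superfamily, had the highest level in Col among the 54 genes also at the floor in K4A. It stood at 0.274, 0.154 and 0 TPM in the HTR5 rescue, against 138, 116 and 144 TPM in Col. Its read ratio of Col to the HTR5 rescue was 924, with an exact binomial 95% interval from 316 to 4484. SCRL10 (AT4G15735), 2 genes away, codes for a small secreted cysteine-rich peptide and had 0 reads in the HTR5 rescue, against 17.6, 18.0 and 13.1 TPM in Col. With a floor of 3 reads over the HTR5 rescue it was at least 55.8-fold lower there, and K4A and sdg2 also had 0. The genes that flank this stretch and were tested, AT4G15730 and MO1, were not called, at -0.33 and 0.04.

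BAN (AT1G61720), an enzyme of proanthocyanidin synthesis in the seed coat, was also near 0, at 0.0817, 0.459 and 0.339 TPM in the HTR5 rescue, against 23.61, 19.8 and 22.9 TPM in Col. TT12, a seed coat transporter, and TT2, a regulator of BAN, were among the 66 genes, with log2 fold changes of -1.83 and -1.69. EXPA25, an expansin gene, had 0 reads in the HTR5 rescue, against 11.4, 9.74 and 10.5 TPM in Col, at least 74.4-fold lower, and its neighbour EXPA23 was lower too. The 66 genes also include defensin-like, low-molecular-weight cysteine-rich, SCR-like and ECA1 gametogenesis peptides, families noticed after values had been seen. Members that are near 0 in the HTR5 rescue could enter the test only through Col, so families are given by their sums over all members, tested or not. The 113 defensin and defensin-like genes, PDF1 genes included, summed to 138, 170 and 186 TPM in the HTR5 rescue, against 881, 844 and 901 TPM in Col. The 188 genes for low-molecular-weight cysteine-rich, SCR-like and ECA1 peptides summed to 368, 339 and 391 TPM in the HTR5 rescue, against 418, 406 and 418 TPM in Col. Both sums were lower in every HTR5 rescue library than in any Col library, the first by far more than the second. Most of the fall in the defensin sum lay in PDF1.2 and PDF1.2c, described above, so the sum is no measure of the family at large. PDF1.2 alone had a mean of 31.0 TPM in the HTR5 rescue and 335 TPM in Col. The defensin sum was 65.7 ± 3.14 TPM in K4A and 170 ± 9.71 TPM in sdg2 (SD). The other sum was 114 ± 5.90 TPM in K4A and 131 ± 7.02 TPM in sdg2. Both sums were thus below Col in K4A and in sdg2 as well, and the causes were not tested.

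Markers of organs were set beside these falls. The 18 seed genes summed to 3.301, 2.90 and 2.09 TPM in the HTR5 rescue, against 29.0, 25.1 and 30.4 TPM in Col, in Col mostly from BAN. Of those 18 genes 15 did not pass the filter, and 6 were at 0 in all HTR5 rescue libraries, against 5 in Col. The 17 pollen genes summed to 394, 342 and 393 TPM in the HTR5 rescue, against 568, 488 and 425 TPM in Col. Their sum was 19.8 ± 3.31 TPM in K4A and 644 ± 44.7 TPM in sdg2. Of the 15 pollen genes tested limma called 0 and limma-voom called 2 lower. At an unadjusted p under 0.05 there were 6 lower and 0 higher, beside 1206 and 2188 of all 19731 genes tested. Without replicate 2 of the HTR5 rescue limma called 3 pollen genes lower, beside 898 of all genes tested. The 5 tapetum genes overlapped, at 384 to 470 TPM in the HTR5 rescue and 329 to 500 TPM in Col, with GRP19, a pollen coat protein gene, called lower at -0.58 and in 11 of 18 alternatives. Outside that list GRP14, GRP18 and GRP20, glycine-rich protein genes near GRP19, were also called lower, at -0.56, -0.53 and -0.85, while GRP17 at -0.04 and GRP16 at -0.46 between them were not. The 11 root genes also overlapped, at 78.9 to 83.0 and 78.0 to 82.5 TPM. Both groups thus hold pollen and tapetum transcripts, which belong to flowers, although the labels name seedlings. The part of flower and seed tissue in the falls was not tested, and in such bulk samples fewer cells of a type and less RNA per cell cannot be told apart.

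The flowering repressor FLC (AT5G10140) and its relatives MAF4 and MAF5 were called lower, at low levels. FLC stood at 0.371, 0.333 and 0.231 TPM in the HTR5 rescue, against 1.68, 1.79 and 1.62 TPM in Col. That is 36 reads over the HTR5 rescue libraries, against 196 over those of Col, and at such low values the log2 fold change of -1.04 ± 0.18 is shrunk by the pseudocount of 1 TPM. MAF4 (AT5G65070) stood at 0.187, 0.378 and 0.428 TPM in the HTR5 rescue, against 1.76, 1.69 and 1.85 TPM in Col. MAF5 (AT5G65080) stood at 0.235, 0.198 and 0.152 TPM in the HTR5 rescue, against 1.93, 1.72 and 1.21 TPM in Col. All groups were separate for these 3 genes, which passed the filter of 1 TPM through Col alone, and limma gave adjusted p-values of 0.010, 0.010 and 0.011. FLC missed the threshold without replicate 2 of Col (adjusted p = 0.051, the highest over its alternatives), and MAF5 without replicate 1 or 2 of Col.

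The other members of the FLC clade, FLM, MAF2 and MAF3, had log2 fold changes of -0.23, 0.19 and 0.18 and were not called by limma. Limma-voom called 4 of the 6 clade genes lower. In K4A seedlings FLC was at 0.307 ± 0.029 TPM, but MAF4 at 1.40 ± 0.216 and MAF5 at 3.07 ± 0.318 TPM. TFL1 (AT5G03840), which keeps the shoot tip from turning into a flower, stood at 11.04, 16.8 and 10.6 TPM in the HTR5 rescue, against 6.96, 8.02 and 5.53 TPM in Col. AP1 (AT1G69120), a floral identity factor, stood at 17.6, 20.6 and 16.0 TPM in the HTR5 rescue, against 13.6, 11.6 and 11.6 TPM in Col. These 2 calls were near the threshold, at adjusted p-values of 0.042 and 0.047 (limma), and were made in 13 and 10 of 18 alternatives. TFL1 was 1 of 6 tested flowering integrators and AP1 1 of 11 tested floral identity genes, and limma called no other gene of either list. At an unadjusted p under 0.05 floral identity had 7 higher and 0 lower, beside 2188 and 1206 of all 19731 genes tested. Limma-voom called 3 floral identity genes and 2 integrators higher. Without replicate 2 of the HTR5 rescue 3 floral identity genes were called higher, and 2 integrators higher and 1 lower. Floral identity also had 3 called higher with median-of-ratios scaling and with quantile normalization.

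**Figure D5:**
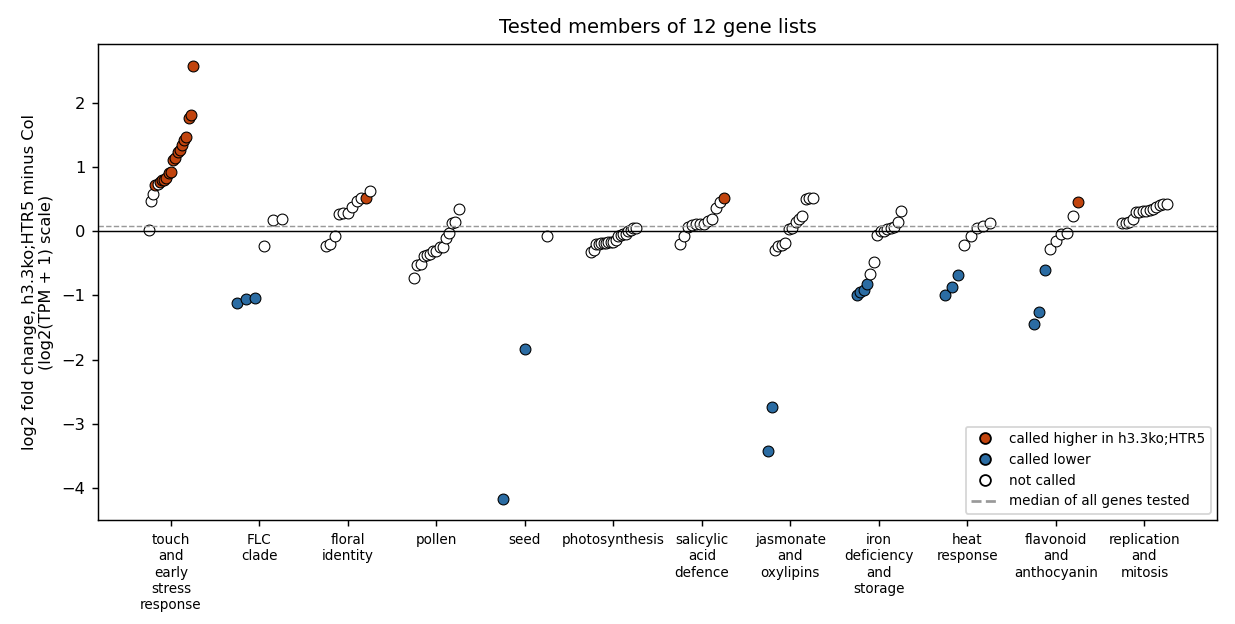
Log2 fold change, HTR5 rescue minus Col, on the log2(TPM + 1) scale, of the tested members of 12 gene lists. Filled points were called and the dashed line is the median of all genes tested. The touch list lies above the line except for TCH1, with 17 of 21 called higher, and each of the other lists plotted holds 0 to 4 called genes.

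ROS1 (AT2G36490), the main DNA demethylase of leaves, stood at 15.8, 18.18 and 17.7 TPM in the HTR5 rescue, against 39.1, 38.5 and 34.6 TPM in Col. The groups were well apart, with a log2 fold change of -1.08 ± 0.10 and a limma adjusted p of 0.00012. ROS1 was the only one of 11 genes of DNA methylation and demethylation that was called, and the median of the list was 0.25. QQS (AT3G30720), an epigenetically variable gene used as a silencing reporter, stood at 3.21, 3.61 and 3.34 TPM in the HTR5 rescue, against 18.0, 14.0 and 9.81 TPM in Col.

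In the flavonoid and anthocyanin pathway 3 of 9 tested genes were called lower and 1 higher. DFR (AT5G42800), the first enzyme committed to anthocyanins, stood at 24.6, 27.3 and 27.9 TPM in the HTR5 rescue, against 75.2, 72.2 and 74.7 TPM in Col. ANS (AT4G22880), which acts after DFR, stood at 21.8, 26.2 and 24.5 TPM in the HTR5 rescue, against 63.8, 54.8 and 58.8 TPM in Col. TT7, a hydroxylase that acts before DFR, had a log2 fold change of -0.61, and FLS1, which leads to flavonols on another branch, was called higher at 0.45. The other 5 of the 9 pathway genes were not called. TT7 was called in 15 and FLS1 in 17 of 18 alternatives.

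Of 14 genes of iron deficiency and storage, limma called 4 lower and limma-voom 5. The transcription factors BHLH38 and BHLH39, neighbours on chromosome 3, had log2 fold changes of -0.82 ± 0.17 and -0.95 ± 0.17. IMA1 and IMA2, also neighbours, code for peptides that promote iron uptake and had log2 fold changes of -0.92 ± 0.19 and -0.99 ± 0.17. BHLH39 (AT3G56980) stood at 2.95, 3.57 and 2.95 TPM in the HTR5 rescue, against 5.69, 7.02 and 8.62 TPM in Col. The list's median was -0.03, and these calls were made in 13, 16, 14 and 17 of 18 alternatives. Without replicate 2 of the HTR5 rescue 6 genes of the list were called lower and 1 higher, beside 898 and 701 of all 19731 genes tested. AT4 (AT5G03545), a non-coding RNA of phosphate starvation, stood at 30.0, 46.8 and 32.8 TPM in the HTR5 rescue, against 91.2, 88.0 and 84.2 TPM in Col, and was the 1 of 6 phosphate genes called, with 2 called lower without replicate 2 of the HTR5 rescue.

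Several lists showed no call with all 6 libraries. Of 19 photosynthesis genes limma and limma-voom called 0, with 1 lower and 0 higher at an unadjusted p under 0.05. Their log2 fold changes ran from -0.32 to 0.06, and their sum was lower in replicate 2 of the HTR5 rescue, at 95376 TPM, than in the other 5 libraries, at 120427 to 127938 TPM. Without that library 2 photosynthesis genes were called higher and 2 lower, and the median log2 fold change was 0.01 in place of -0.17. Of 14 auxin and shade genes, 9 abscisic acid genes, 7 hypoxia genes and 7 DNA damage genes limma and limma-voom called 0, with 1, 1, 2 and 1 at an unadjusted p under 0.05. Of 15 clock genes limma called 0, with 4 at an unadjusted p under 0.05, and limma-voom called 1. Without replicate 2 of the HTR5 rescue 1 auxin and shade gene, 1 abscisic acid gene and 1 clock gene were called, all higher. A p that misses the threshold does not show that these genes were alike in the 2 groups.

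DYL1 (AT1G28330), a dormancy-associated gene, was low in the HTR5 rescue alone of the 4 groups. It stood at 1.81, 2.95 and 2.07 TPM in the HTR5 rescue, against 40.6, 36.4 and 39.1 TPM in Col, a log2 fold change of -3.61 ± 0.15. K4A had 80.4 ± 11.4 TPM of it and sdg2 122 ± 10.9 TPM. The remaining falls named by rule were AT5G47350, an alpha/beta-hydrolase gene, AT2G38900, a protease inhibitor gene, and AT2G30810, of the gibberellin-regulated family. AT2G38900 stood at 0.312, 0 and 0 TPM in the HTR5 rescue, against 22.2, 16.5 and 18.6 TPM in Col. AT5G47350 (chr5:19212665-19214453) stood at 0.336, 0.471 and 0.436 TPM in the HTR5 rescue, against 73.2, 63.5 and 78.1 TPM in Col. K4A and sdg2 were also low, at 0.170 ± 0.042 and 0.237 ± 0.0762 TPM. AT2G30810 had 0 reads in the HTR5 rescue, against 244 in Col, at least 81.1-fold lower.

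The K4A and sdg2 libraries share no library with the comparison above, so those of its genes that were tested there can be read again. In K4A against sdg2 62.5% of 20152 tested genes were called, 24.8% higher and 37.7% lower. Of the 352 genes higher in the HTR5 rescue 337 were tested there, and 235, or 69.7% of those tested, were called higher and 47 lower. Those 235 are 66.8% of the 352 and 4.71% of the genes called higher in K4A against sdg2. Of the 423 genes lower in the HTR5 rescue 319 were tested there, and 186, or 58.3% of those tested, were called lower and 86 higher. Those 186 are 44.0% of the 423 and 2.45% of the genes called lower in K4A against sdg2. Of the 200 falls of 2-fold or more only 104 were tested there, with 58 called lower and 30 higher. Of the 73 rises of 2-fold or more 66 were tested there, with 52 called higher and 8 lower. K4A and sdg2 differ in the knockout with its HTR5 supply, in the change at lysine 4 and in sdg2 itself, so these counts do not part them. The 2 groups also differed in the summed pollen list, at 19.8 ± 3.31 TPM in K4A and 644 ± 44.7 TPM in sdg2 (SD).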

How the data were processed

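RNA-seq was measured in 12 libraries of seedlings, 3 in each of 4 groups, and the 6 libraries of h3.3ko;HTR5 and Col were compared here. The authors deposited TPM for 27655 genes, each library summing to 1000000, and 1 heading that ends in Counts also holds TPM. The submitters' processing notes name fastp 0.20.1, HISAT2 2.1.10, DESeq2 1.26.0 and the build TAIR10, without their roles, and the counting tool, read length and use of strand are not given in the sources used here. Dividing out gene spans of RefSeq TAIR10.1, introns included, gave whole reads (within 0.02) for about 99.98% of values in each library, so the deposited TPM are scaled to the span. Spans were matched for 27445 genes.

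Values were taken as log2(TPM + 1), so that folds of low genes are understated. They were tested with limma 3.58.1 in R 4.3.3, with a variance trend and Benjamini-Hochberg adjustment over the 19731 genes, called at an adjusted p under 0.05. Alternatives changed scaling, filter, pseudocount, model and libraries. Named genes were the 12 largest rises and 12 largest falls among called genes whose groups do not overlap and whose mean is at least 5 TPM in the higher group, genes of 33 lists, and up to 3 tested neighbours on each side. Members and lists were chosen with earlier results of these data known, and other genes were named after their values were seen. The steps were tested on simulated data. Tables were handled with Python 3.11.15, pandas 2.3.3 and scipy 1.17.1.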

Additional observations from a re-analysis of the deposited data

How the results depend on the processing

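The 775 calls of the HTR5 rescue against Col became 1912 with all 12 libraries in the fit, 4695 with array quality weights, 1174 with the replicate block, 1523 without replicate 2 of the HTR5 rescue and with median-of-ratios scaling (chosen after seeing the data), and 381 to 1599 with 1 library left out, lowest without replicate 3 of Col and highest without replicate 2 of the HTR5 rescue. Without replicate 1, 2 or 3 of Col the count was 395, 389 and 381. With a mean of at least 5 TPM 122 genes were called at 2-fold or more, against 273. The share of called genes that were higher, 45.4%, was 60.5% with all 12 libraries, 55.8% with weights, 41.6% without replicate 2 and with median-of-ratios scaling, 52.6% with a mean of at least 5 TPM, 39.0% with median-of-ratios scaling, 41.1% with no filter, 41.2% with quantile normalization, 53.2% with the replicate block, 38.0% with limma-voom, and 36.2% to 49.5% with 1 library left out. The causes of these shifts were not tested. Same-numbered libraries correlated at -0.07, 0.02 and 0.07 in their deviations from the group means, so the numbers were not taken as pairs. Of 156 named called genes, 31 missed the threshold without replicate 3 of Col, 26 each without replicates 1 and 2 of Col, and 15 at most under any other alternative, and none changed direction. Median-of-ratios scaling moved the median log2 fold change of all genes from 0.08 to -0.002. Small list medians moved with it, from 0.12 to 0.05 for salicylic acid defence and from 0.11 to 0.03 for cold response. The touch list went from 0.91 to 0.83. Genes with few reads, such as FLC, are limited by depth.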

Other observations

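Called genes of the HTR5 rescue against Col were short. With the tested genes sorted by span into 4 bins of about equal size, 8.37% were called in the bin of the shortest (29 to 1686 bases), then 4.26%, 2.1% and, in the bin of the longest (3306 to 27265 bases), 1.0%. The median span was 1720 bases for genes called higher, 1484 for genes called lower and 2408 for genes not called. Genes with more of their span in exons were also called more often, at 6.50% in the highest bin of 4 and 1.49% in the lowest. Histone, defensin and small peptide genes are short, and their part in this pattern was not tested.

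Called genes that lie next to each other among the tested genes of a chromosome formed 17 runs of higher genes with 35 of the 352 called higher. There were 21 runs of lower genes, with 42 of the 423 called lower. Whether this is more than the number of called genes alone would give was not tested. Among the lower runs were MAF4 with MAF5, PDF1.2 with PDF1.2c, PDF1.3 with PDF1.2b, EXPA23 with EXPA25, BHLH38 with BHLH39 and IMA1 with IMA2, of which several are duplicated genes. Of the 314 tested ribosomal protein genes, 3 were called higher and 1 lower, at a median log2 of 0.08. Without replicate 2 of the HTR5 rescue 12 ribosomal protein genes were called higher and 3 lower, beside 701 and 898 of all 19731 genes tested.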
